A study of Mus musculus with 6 samples.

Results

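Smads are the transcription factors through which TGF-β and BMP receptors reach the nucleus, and 10 genes of this system were followed here in primary cultured mouse renal tubular epithelial cells (RTECs). They were taken by symbol: the receptor-regulated Smads of the TGF-β branch (Smad2, Smad3) and of the BMP branch (Smad1, Smad5), the common partner Smad4, the inhibitory Smads (Smad6, Smad7), the corepressors Ski and Skil (also called SnoN), and the ubiquitin ligase gene Smurf2. All 10 were found among the 46517 genes of the files, and all 10 passed the filter on low counts, with at least 721 reads in every library. RNA was sequenced from 3 untreated control (CTL) cultures and from 3 that had received TGF-β1 at 50 ng/ml for 24 h. All 6 cultures were grown from kidneys of wild type FvB mice, aged 4 to 6 weeks per the labels (the methods give a somewhat younger range), in RPMI with 10% fetal bovine serum and EGF, and were kept in serum-free medium for 24 h before treatment. The sources do not say whether the cultures came from separate animals, so p-values measure the spread between these cultures only.

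In the canonical pathway, activated TGF-β receptors phosphorylate Smad2 and Smad3, BMP receptors phosphorylate Smad1 and Smad5, and either kind joins Smad4 and enters the nucleus. The inhibitory Smads compete for the receptors and bring in ubiquitin ligases such as Smurf2, while Ski and Skil bind Smad complexes on DNA and recruit repressor complexes. Several of these inhibitors are themselves induced by the signal, which closes a negative feedback loop. In the kidney, Smad3 is known as a mediator of TGF-β–driven fibrosis and Smad7 as its antagonist.

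Among the 10 members, 4 were higher with TGF-β1 and 0 were lower at an adjusted p-value under 0.05 (edgeR's quasi-likelihood test); at an unadjusted p-value under 0.05, 4 were higher and 2 were lower. Of all 15862 genes tested, 5.00% were higher and 6.69% were lower at the adjusted threshold, 11.7% in all. At an unadjusted p-value under 0.05 (edgeR), 4529 of the 15862 genes passed in either direction. The 4 that rose were 3 inhibitors of the pathway, Skil, Smad7 and Smurf2, and the BMP-branch Smad5. With library size as the only scaling, 3 members were higher and 1 was lower, and over all genes the split moved from 793 higher and 1061 lower to 508 and 1467. The replicate numbers of the labels paired the cultures, as same-numbered CTL and TGF-β1 cultures deviated together from their group means. With the replicate number as a block, 5 members were higher and 3 were lower, against 15.1% and 19.1% of all genes (34.2% in either direction). Ski joined the higher members in that fit, and Smad2, Smad3 and Smad6 fell. The median log2 fold change was 0.11 over the 10 members and -0.0028 over all genes tested.

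**Figure D1:**
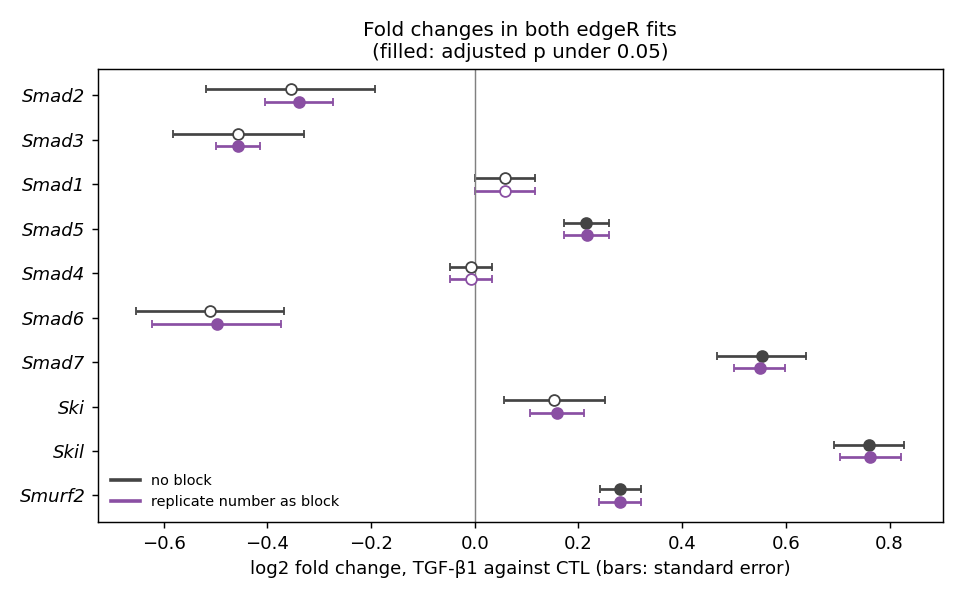
Log2 fold changes of the 10 genes, TGF-β1 against CTL, with standard errors, from edgeR without a block (grey) and with the replicate number as a block (purple); filled points have an adjusted p-value under 0.05. Skil, Smad7, Smurf2 and Smad5 are filled in both fits, Smad2, Smad3, Smad6 and Ski in the fit with the block, and Smad1 and Smad4 in neither.

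The libraries held 28313080 to 34183497 reads on genes. Replicate 2 stood apart in both groups. The summed level of 6 tubule epithelium markers (Cdh16, Cdh1, Epcam, Krt8, Krt18 and Pax8) was 839 and 959.6 CPM (the read count over the TMM-adjusted library size) in the replicate 2 cultures and 1696 to 2553 CPM in the other 4, whereas that of 6 fibroblast markers was 2115 and 2402 CPM against 763 to 1033. Col1a1 carried most of the fibroblast sum (1465 and 1835 CPM in replicate 2), and Col3a1, Pdgfrb and Dcn were also highest in replicate 2 of both groups, but Pdgfra was not, and Lum had at most 24 reads. Of the epithelium markers, Cdh1, Epcam, Krt8 and Krt18 were lowest in replicate 2 of both groups. Pax8 and Cdh16 were lowest there after TGF-β1 only. In CTL, Pax8 was highest in replicate 2 (215 CPM, against 212 and 192), and Cdh16 was lowest in replicate 3 (232 CPM, against 251 in replicate 2). Markers of differentiated segments were uneven. Of the proximal tubule list, Slc34a1 had at most 10 reads in any library, whereas Cubn had 120 to 162 reads and Lrp2 had 884 to 2444. Umod, of the thick ascending limb, reached 57 reads and Aqp2, of the collecting duct, 5. Lrp2 fell with TGF-β1 by 0.93 on the log2 scale (adjusted p = 0.0165, edgeR). Within the epithelium list, Cdh16 and Pax8 fell with TGF-β1 to 0.352 and 0.585 of their CTL levels (adjusted p = 0.00922 and 0.00436, edgeR), and the other 4 markers passed the test in neither direction without the block. The methods state that the mice were male. The summed level of 4 Y-linked transcripts (Ddx3y, Eif2s3y, Kdm5d and Uty) was at most 0.172 CPM in replicates 1 and 3 and at least 142 CPM in replicate 2. Xist stood at 207 and 237 CPM in replicate 2 and at 516 to 634 CPM in the other 4 libraries. These transcripts were examined after their values had been seen. In these bulk cultures, fewer cells of a type and less RNA per cell cannot be told apart.

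Promoter sequences of 4 members that moved in either fit are given first, because Smad complexes act through short elements in DNA. Windows from the RefSeq table of promoters (GRCm38.p6, windows that end just after each start) were searched for 6 of the 10 members: Smad1, Smad3, Smad5, Smad6, Ski and Smurf2. The other members were left out of the search, so nothing is said here of their promoters. Motifs were searched on both strands: the palindromic Smad element GTCTAGAC, the CAGA core CAGAC, the GC element GGCGCC and the AP-1 element TGACTCA. None of these 4 overlaps another in the windows shown, and a match is a description of letters, not of a bound site. Over all 32851 promoters in the table, 0.213% held GTCTAGAC, 49.6% held CAGAC, 11.9% held GGCGCC and 5.2% held TGACTCA. Of the 6 members searched, Smad6 (chromosome 9, chr9:64022010-64022309, minus strand) was the one with GTCTAGAC. The first base of that element lies 4 bases before the annotated start, so that the element spans it. Smurf2 (chr11:106920666-106920965, minus strand) held 2 CAGA cores and 2 GC elements. The Smad5 window at the annotated gene start (chr13:56702760-56703059, plus strand), 1 of 3 starts in the table, held 1 GC element. Of the other windows of Smad5, 1 overlapped that window and held the same GC element, and 1 held a CAGA core. Smad3 (chr9:63757945-63758244, minus strand) held none of the 4. The motifs are in capitals, and each sequence is written 5′ to 3′ on the gene's strand.
Smad6: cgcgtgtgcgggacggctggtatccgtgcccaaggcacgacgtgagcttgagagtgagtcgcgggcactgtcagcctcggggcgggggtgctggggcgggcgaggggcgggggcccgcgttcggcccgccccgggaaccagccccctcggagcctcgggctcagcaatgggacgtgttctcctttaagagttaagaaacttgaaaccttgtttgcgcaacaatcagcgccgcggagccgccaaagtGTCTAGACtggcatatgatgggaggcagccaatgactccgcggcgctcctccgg
Smurf2: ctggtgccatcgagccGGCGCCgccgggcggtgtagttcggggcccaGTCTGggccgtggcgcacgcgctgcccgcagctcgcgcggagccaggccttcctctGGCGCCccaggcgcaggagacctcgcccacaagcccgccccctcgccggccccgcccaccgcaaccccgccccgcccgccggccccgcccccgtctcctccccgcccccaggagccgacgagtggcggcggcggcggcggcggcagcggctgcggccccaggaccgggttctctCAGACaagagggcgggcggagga
Smad5: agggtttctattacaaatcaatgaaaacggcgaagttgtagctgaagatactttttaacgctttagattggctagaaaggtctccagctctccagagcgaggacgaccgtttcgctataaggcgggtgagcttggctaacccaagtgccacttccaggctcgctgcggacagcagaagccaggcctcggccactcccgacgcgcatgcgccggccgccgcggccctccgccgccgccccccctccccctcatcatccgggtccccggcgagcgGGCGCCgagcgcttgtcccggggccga
Smad3: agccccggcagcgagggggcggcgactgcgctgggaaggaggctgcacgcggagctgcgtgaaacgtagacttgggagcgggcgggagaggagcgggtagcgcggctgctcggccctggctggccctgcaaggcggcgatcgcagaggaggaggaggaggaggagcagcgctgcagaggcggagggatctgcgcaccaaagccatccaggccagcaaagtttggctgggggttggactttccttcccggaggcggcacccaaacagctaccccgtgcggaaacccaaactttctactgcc

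Among the receptor-regulated Smads of the TGF-β branch, Smad3 (GRCm38 chr9:63646767-63757994, minus strand) had normalized counts (TMM scaling to a common library size) of 11397, 10142 and 13022 in CTL replicates 1, 2 and 3 and of 8461, 7300.5 and 9432 after TGF-β1. Every TGF-β1 culture was below every CTL culture, and replicate 2 was the lowest culture of each group. The means were 11520.3 ± 1444 and 8398 ± 1067 (SD, n = 3 each). The log2 fold change was -0.46 ± 0.13 (SE, adjusted p = 0.0698, edgeR). In the fit with the replicate block, Smad3 fell by 0.46 on the log2 scale (standard error 0.043, adjusted p = 0.00017, edgeR). Without the block, DESeq2, another test of counts, also called Smad3 lower (adjusted p = 0.0124), whereas limma-voom did not (adjusted p = 0.0676). Pair by pair, treated against control, the log2 ratios were -0.43, -0.47 and -0.46. Leaving out a same-numbered pair gave -0.47, -0.45 and -0.45 without replicates 1, 2 and 3 (adjusted p = 0.464, 0.0262 and 0.121, edgeR without the block), so that only the fit without replicate 2 called Smad3.

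Smad2 (on chromosome 18), the other receptor-regulated Smad of this branch, had 5018, 3853 and 5926 normalized counts in CTL and 3903, 3475 and 4189.95 after TGF-β1. Here the groups overlapped, because CTL replicate 2 was below TGF-β1 replicates 1 and 3. Smad2 had a log2 fold change of -0.35 (95% interval -0.75 to 0.043, adjusted p = 0.217, edgeR) and it fell by 0.34 with the replicate block (standard error 0.066, adjusted p = 0.00603, edgeR). All 3 pairs were lower, by log2 ratios of -0.36, -0.15 and -0.50. Leaving out a pair gave -0.35, -0.43 and -0.26 without replicates 1, 2 and 3 (adjusted p = 0.639, 0.0311 and 0.385, edgeR without the block), and only the fit without replicate 2 called Smad2. With CTL replicate 3 alone left out the value was -0.20 (adjusted p = 0.428, edgeR). In both groups Smad2 and Smad3 had the same order of replicates as the summed epithelium markers, lowest in replicate 2 and highest in replicate 3. Of the single markers, Pax8 had this order in neither group and Cdh16 only after TGF-β1. The part of the difference between replicates in the Smad2 and Smad3 values was not tested beyond the fits with the block and without replicate 2.

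Per kb of exon, which puts different genes on a common length scale, Smad3 exceeded Smad2 in every library. Raw reads had the same order, with at least 7048 for Smad3 and at most 5435 for Smad2. The length used is the union of all annotated exons (5.542 kb for Smad3 and 8.781 kb for Smad2). The isoforms expressed were not determined, so ratios and orders of levels between genes depend on that length. The ratio of Smad3 to Smad2 was 3.60, 4.17 and 3.48 in CTL and 3.43, 3.33 and 3.57 after TGF-β1. On the log2 scale the mean ratio was 1.90 ± 0.14 for CTL and 1.78 ± 0.05 for TGF-β1 (n = 3 each, SD), a difference of -0.12, which was -0.04 with CTL replicate 2 left out. That difference did not pass the test (two-sided exact permutation test, p = 0.2, adjusted p = 0.2 over 4 ratios), and 1 of 3 pairs was higher. In this test 3 cultures against 3 cannot give a p-value below 0.1.

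In the BMP branch, Smad5 rose and Smad1 did not pass the test. Smad5 (chr13:56703010-56742377, plus strand) had 4065, 4089.95 and 3876 normalized counts in CTL and 4707, 4584 and 4680.0 after TGF-β1, with no overlap between groups. It rose by a log2 fold change of 0.22 ± 0.043 (SE, adjusted p = 0.0287, edgeR), a 1.16-fold change. The call was lost with library size as the only scaling (0.14, adjusted p = 0.097, edgeR) and in 5 of the 6 fits with 1 culture omitted. Smad1 (chr8:79338395-79399518, minus strand) had 1616, 1710.4 and 1568 normalized counts in CTL and 1706, 1621 and 1771 after TGF-β1, and the groups overlapped. Its log2 fold change was 0.059 (95% interval -0.08 to 0.20, adjusted p = 0.557, edgeR), and it was -0.014 with library size only. Per kb of exon, Smad1 stood at 0.471, 0.496 and 0.479 of the Smad5 level in CTL and at 0.4296, 0.419 and 0.448 after TGF-β1. The mean log2 ratio of Smad1 to Smad5 was -1.05 ± 0.04 for CTL and -1.21 ± 0.05 for TGF-β1 (SD, n = 3 each), with all 3 pairs lower (p = 0.1 in a two-sided exact permutation test, its minimum here, and adjusted p = 0.133 over 4 ratios).

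Smad4 (on chromosome 18), which both branches share, was the member with the smallest fold change. Its normalized counts were 4994, 5171 and 5011 in CTL and 5018, 5011 and 5069.6 after TGF-β1, and the groups overlapped. The log2 fold change was -0.0073, with a 95% interval of -0.10 to 0.089 (adjusted p = 0.929, edgeR), and the sign changed with the cultures used. In the blocked fit it was -0.0072 (adjusted p = 0.915, edgeR).

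**Figure D2:**
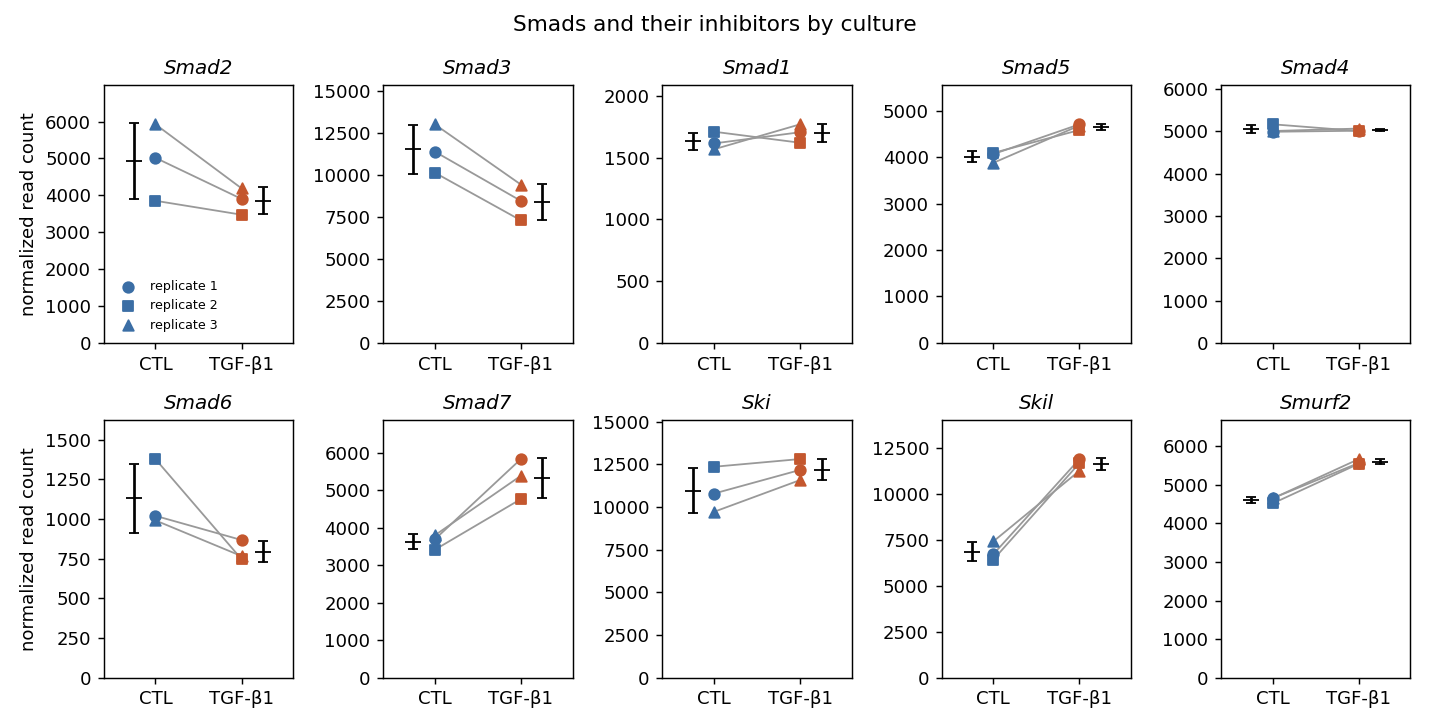
Normalized read counts of the 10 genes in each culture, with grey lines joining the CTL and TGF-β1 cultures of the same replicate number, marker shapes giving that number, and black bars for the mean and SD of each group (n = 3). Skil, Smad7, Smurf2 and Smad5 lie higher in all 3 TGF-β1 cultures, Smad3 and Smad6 lie lower, and Smad4 lies between 4994 and 5171 in all 6.

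Of the 2 inhibitory Smads, Smad7 rose in both fits, and Smad6 fell in the fit with the replicate block. Smad7 (on chromosome 18), which blocks the TGF-β receptor, had 3687, 3411 and 3796 normalized counts in CTL and 5833, 4765 and 5386 after TGF-β1. The groups did not overlap, and replicate 2 was again the lowest culture of each. Smad7 rose by a log2 fold change of 0.55 ± 0.085 (SE, adjusted p = 0.014, edgeR), which is 1.47-fold. In the blocked edgeR fit its adjusted p-value was 0.000139, and the 3 pairs gave log2 ratios of 0.66, 0.48 and 0.51. The call held in 4 of the 6 fits without the block that left out 1 culture; it was lost when replicate 1 was left out of CTL (adjusted p = 0.075, edgeR) or of TGF-β1 (adjusted p = 0.0572, edgeR).

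Smad6 (chr9:63953076-64022059, minus strand), which acts mainly against BMP receptor signaling, had 1019.9, 1378 and 991 normalized counts in CTL and 867, 747 and 766 after TGF-β1. All TGF-β1 cultures were below all CTL cultures, although CTL replicate 2 was well above the other controls. The log2 fold change was -0.51 ± 0.14 (SE, adjusted p = 0.0716, edgeR), and Smad6 fell in the blocked fit by 0.50 ± 0.12 (SE, adjusted p = 0.0255, edgeR). Without the block, Smad6 was also called lower by DESeq2 (adjusted p = 0.0161) and with library size only (adjusted p = 0.048, edgeR). It was not called by limma-voom (adjusted p = 0.0782). The pairs differed in size, with log2 ratios of -0.23, -0.88 and -0.37. Without replicate 2 in both groups the value was -0.30 (adjusted p = 0.0631, edgeR without the block). The Smad6 promoter, printed above, carries the GTCTAGAC element, alone among the members whose promoters were searched.

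Per kb of exon, Smad7 exceeded Smad6 by 2.56, 1.76 and 2.71 times in CTL and by 4.77, 4.52 and 4.98 times after TGF-β1. The lowest ratio after TGF-β1 was thus above the highest CTL ratio. The mean log2 ratio was 1.20 ± 0.34 for CTL and 2.25 ± 0.07 for TGF-β1 (n = 3 each, SD), a difference of 1.05 (p = 0.1 in a two-sided exact permutation test, its minimum here, and adjusted p = 0.133 over 4 ratios). All 3 pairs were higher.

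Of the corepressors, Skil had the largest fold change of the 10 members. Skil binds Smad complexes and is degraded when TGF-β signaling begins, and its gene is then induced. Skil (chr3:31095058-31122577, plus strand) had 6730.5, 6438 and 7429 normalized counts in CTL and 11919.9, 11701 and 11283 after TGF-β1, and the groups did not overlap. The means were 6866 ± 509 and 11634 ± 324 (SD, n = 3 each). Skil rose by a log2 fold change of 0.76 ± 0.067 (SE, adjusted p = 0.00379, edgeR), which is 1.69-fold, and the fit with the replicate block gave 0.76 as well (adjusted p = 6.72e-05, edgeR). Of the 10 members, only Skil kept its call in all 6 fits with 1 culture omitted, where its log2 fold change ran from 0.72 to 0.82. Without replicate 1 in both groups the value was 0.73 but the adjusted p-value was 0.232 (edgeR), and in that fit 0 genes were called of all those tested, with 1938 at an unadjusted p-value under 0.05.

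Ski (chr4:155154075-155222592, minus strand), the founding member of that family, had 10785, 12354.5 and 9715 normalized counts in CTL and 12169.8, 12807 and 11577 after TGF-β1. The groups overlapped, since CTL replicate 2 was above TGF-β1 replicates 1 and 3. Its log2 fold change was 0.15 (95% interval -0.081 to 0.39, adjusted p = 0.355, edgeR), and it was 0.25 with CTL replicate 2 left out and 0.075 with CTL replicate 3 left out. With the replicate block Ski passed narrowly, at 0.16 ± 0.052 (SE, adjusted p = 0.0476, edgeR), and the pairs gave 0.17, 0.053 and 0.25. The level of Skil relative to Ski, per kb of exon, was 0.358, 0.299 and 0.439 in CTL and 0.562, 0.524 and 0.559 after TGF-β1. The mean log2 ratio was -1.47 ± 0.28 for CTL and -0.87 ± 0.06 for TGF-β1 (n = 3 each, SD), with all 3 pairs higher (p = 0.1 in a two-sided exact permutation test, its minimum here, and adjusted p = 0.133 over 4 ratios).

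Smurf2 (chr11:106820066-106920715, minus strand), the ligase that Smad7 brings to the receptors, had closely spaced values within each group. It had 4654, 4519.7 and 4648 normalized counts in CTL and 5571, 5549.95 and 5671 after TGF-β1, without overlap. The means were 4607 ± 76.0 and 5597 ± 64.9 (SD, n = 3 each). Smurf2 rose by a log2 fold change of 0.28 ± 0.04 (SE, adjusted p = 0.012, edgeR), which is 1.21-fold, and the pairs gave 0.26, 0.30 and 0.29. In the blocked edgeR fit the adjusted p-value was 0.00133. Leaving replicate 1 out of CTL or of TGF-β1 gave adjusted p-values of 0.075 and 0.0597 (edgeR without the block), and the call held in the other 4 such fits.

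Over all members, the groups did not overlap for 4 genes that were higher and 2 that were lower with TGF-β1, against 17.2% and 18.0% of all genes tested (35.1% in either direction). With levels taken as CPM per kb of exon, Smad3 stood first in CTL (65.7 ± 8.23), followed by Ski (62.2 ± 7.54), Smad4 (43.0 ± 0.828), Smad7 (25.4 ± 1.38), Smurf2 (23.6 ± 0.389), Skil (22.4 ± 1.66), Smad2 (17.7 ± 3.74), Smad5 (17.1 ± 0.497), Smad6 (11.1 ± 2.12) and Smad1 (8.23 ± 0.366; SD, n = 3 each). Smad3 and Ski overlapped in range in CTL, as did each neighbour from Smad7 to Smad5 in that order. After TGF-β1 the order was Ski (69.2 ± 3.49), Smad3 (47.9 ± 6.08), Smad4 (42.8 ± 0.271), Skil (37.9 ± 1.05), Smad7 (37.2 ± 3.75), Smurf2 (28.7 ± 0.333), Smad5 (19.8 ± 0.276), Smad2 (13.9 ± 1.29), Smad1 (8.57 ± 0.378) and Smad6 (7.82 ± 0.638; SD, n = 3 each). In that order the ranges of Smad3 and Smad4, of Skil and Smad7, and of Smad1 and Smad6 overlapped. Ski was above Smad3 in all 3 TGF-β1 libraries and below it in 2 of 3 CTL libraries.

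**Figure D3:**
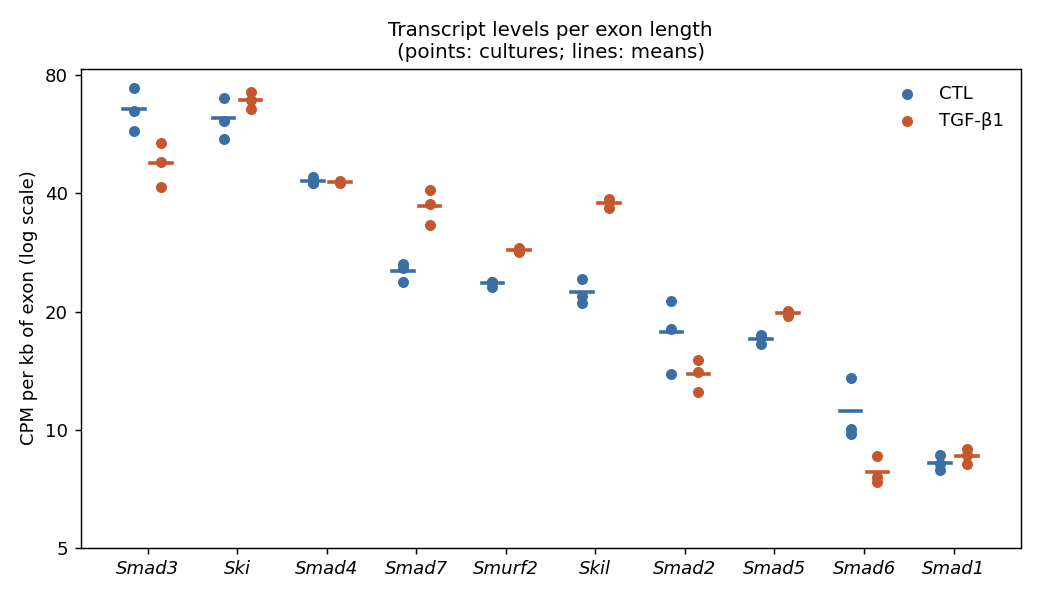
Levels of the 10 genes as CPM per kb of exon on a log axis, ordered by their CTL mean, with points for cultures and lines for group means (blue CTL, orange TGF-β1). The TGF-β1 points of Skil and Smad7 lie above those of Smurf2, and those of Smad2 and Smad6 lie below most CTL points of the same gene.

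Of 38 other genes of the Smad pathway, 37 were tested, 4 rose, 4 fell and 29 did not pass (edgeR), against 5.00% higher and 6.69% lower over all genes. Their median log2 fold change was 0.068. With the replicate block 10 were higher and 10 were lower, against 15.1% and 19.1% of all genes. Foxh1, an early embryonic Smad partner, was the gene left untested. The 4 that rose were Pmepa1 and Ldlrad4, which both keep Smad2 and Smad3 from the receptor, and Rnf111 and Rnf11. Pmepa1 had 19130.0, 17040.5 and 23205 normalized counts in CTL and 36925, 35535 and 35812 after TGF-β1, and its log2 fold change of 0.87 ± 0.12 (SE, adjusted p = 0.0105, edgeR) was the largest rise in this list. Ldlrad4 rose by 0.44 on the log2 scale (adjusted p = 0.035, edgeR). Rnf111 (Arkadia), a ligase that targets Skil and Smad7 for degradation, rose by 0.29 (adjusted p = 0.02, edgeR), and Rnf11, a RING-type partner of Smurf ligases, rose by 0.31 (adjusted p = 0.0261, edgeR).

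The 4 that fell were Dab2, Nedd4l, Wwp1 and Ctdsp1. Nedd4l, a ligase that marks activated Smad2 and Smad3, had 4744, 4194 and 4476 normalized counts in CTL and 2868, 2206 and 2971 after TGF-β1, with no overlap, and fell by 0.74 on the log2 scale (adjusted p = 0.0173, edgeR). Wwp1, of the same ligase family as Smurf2, fell by 0.46 (adjusted p = 0.0208, edgeR). Dab2, an endocytic adaptor that binds TGF-β receptors and Smads, fell by 0.86 (adjusted p = 0.0276, edgeR), and the phosphatase gene Ctdsp1 by 0.28 (adjusted p = 0.0379, edgeR). Of the 8 calls, those of Rnf11, Dab2, Ldlrad4 and Ctdsp1 held in at most 1 of the 6 fits with 1 culture omitted.

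**Figure D4:**
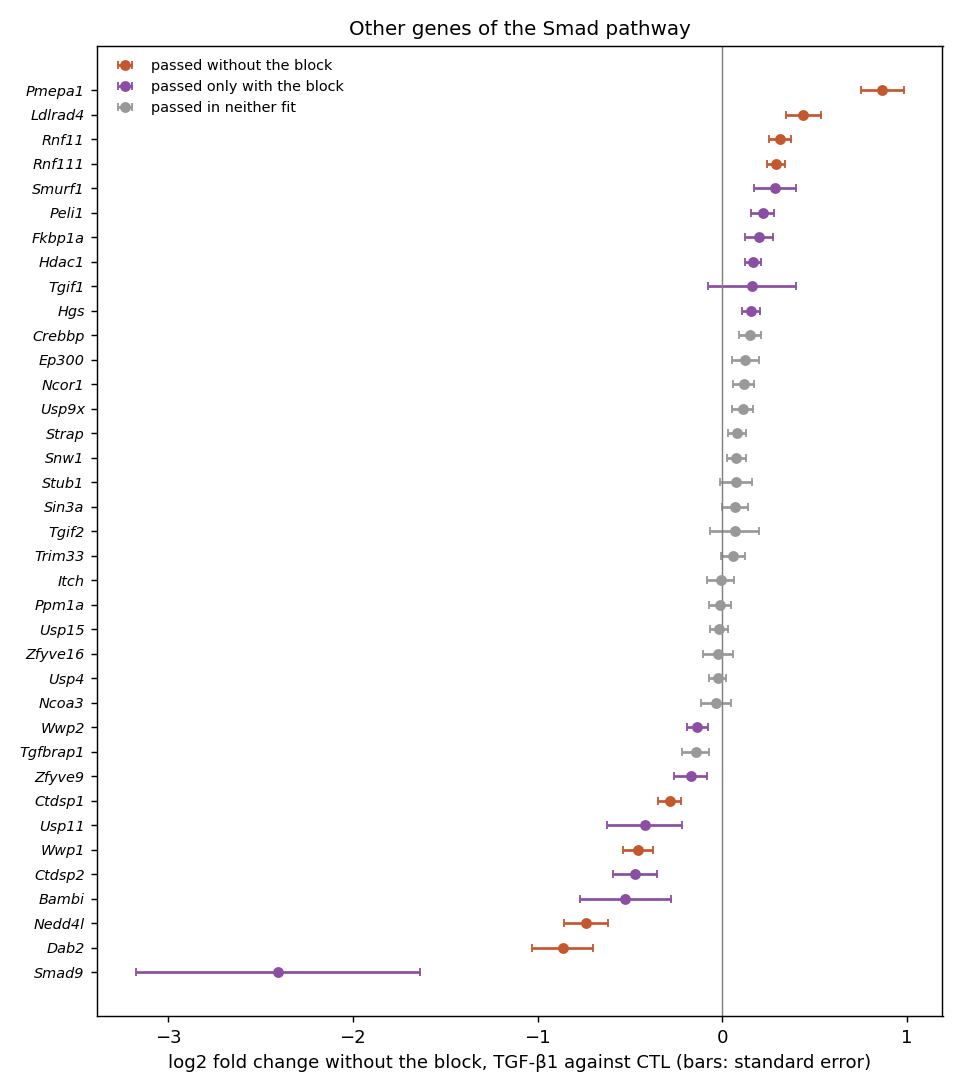
Log2 fold changes of the 37 tested genes of the wider Smad pathway list, TGF-β1 against CTL, from edgeR without the block, with standard errors; orange marks genes that passed without the block, purple those that passed with the block alone, and grey those that passed in neither fit. Pmepa1 and Ldlrad4 lie at the upper end, and Nedd4l, Dab2 and Smad9 at the lower end, the last with the widest error.

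The closest relatives of members in that list, Smad9 and Smurf1, did not pass without the block. Smurf1 had 5289.5, 4705 and 5991 normalized counts in CTL and 6733, 5704 and 7045 after TGF-β1, with overlapping groups. Its log2 fold change of 0.29 had an adjusted p-value of 0.167, and of 0.00176 with the replicate block (edgeR). Smad9, the third BMP-branch Smad, was rare, with 42.5, 155.8 and 24.0 normalized counts in CTL and 12.2, 17.6 and 12.2 after TGF-β1. The groups did not overlap, and CTL replicate 2 was far above the other controls. The Smad9 log2 fold change was -2.40 ± 0.77 (SE, adjusted p = 0.102, edgeR), while the blocked fit gave -2.26 (adjusted p = 0.00345, edgeR). It was -1.25 with CTL replicate 2 left out (adjusted p = 0.097) and -1.45 without replicate 2 in both groups (adjusted p = 0.0618, both edgeR without the block).

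Readouts of the 2 branches gave the setting of these values. Over all genes tested, 5.00% were higher and 6.69% were lower without the block, and 15.1% and 19.1% with it. Of 7 transcripts commonly used to read Smad2 and Smad3 activity, 4 rose, 3 did not pass and 0 fell, with a median log2 fold change of 0.42 (edgeR). Those that rose were Fn1 (log2 fold change 1.04), Snai1 (0.98), Cdkn2b (0.85) and Ltbp2 (0.42), while Junb (0.30), Ccn2 (0.18) and Tgfbi (-0.18) did not pass. With 1 culture omitted, the calls of Fn1 and Cdkn2b held in all 6 fits, that of Ltbp2 in 2 and that of Snai1 in 0 (adjusted p = 0.0659 to 0.147, edgeR). Ccn2 and Junb passed with the replicate block (adjusted p = 0.0438 and 0.0227, edgeR). Of 5 transcripts commonly used to read Smad1 and Smad5 activity, Id2 fell by 2.00 on the log2 scale (adjusted p = 0.0104, edgeR). Atoh8 (-1.61), Id3 (-1.07), Id4 (-0.67) and Id1 (-0.24) did not pass without the block. The activity of Smad proteins was not measured, and which branch acted on these transcripts was not tested. The Id2 call held in 4 of the 6 fits with 1 culture omitted. Atoh8, Id3 and Id4 were highest in replicate 2 of both groups, as with Id3 at 4615 normalized counts in CTL replicate 2 against 2054 and 1469 in the other controls. With CTL replicate 2 left out their log2 fold changes were -0.52, -0.45 and -0.14. All 5 fell with the replicate block, at adjusted p-values of at most 0.0461 (edgeR).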

How the data were processed

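RNA sequencing of 3 CTL and 3 TGF-β1 cultures of RTECs was analysed. The authors isolated poly(A) mRNA, sequenced 50-bp single-end reads, trimmed them with TrimGalore, aligned them to GRCm38 with STAR 2.4.1d and counted them per gene with HTSeq 0.6.1. The deposited values are raw read counts without normalization. Rows that name no gene (reads that aligned to more than 1 place, to no gene or to several genes) held 25.4% to 25.9% of the records and were left out. Reads shared by near-identical gene copies are thereby lost. The annotation release and strand setting of the counting are not given in the sources used here. Exons of other annotated genes cover at most 1.35% of the exon bases of any member.

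Symbols and union exon lengths came from GENCODE M21 (GRCm38), which matched 46005 of 46517 identifiers. Promoters came from RefSeq (GRCm38.p6). Counts were tested in R 4.3.3 with edgeR 4.0.16 (filterByExpr, TMM, glmQLFit with robust estimation, glmQLFTest, two-sided) and Benjamini-Hochberg adjustment over 15862 genes, with a threshold of 0.05. Standard errors were derived from the F statistic, and 95% intervals from its degrees of freedom. Normalized counts are scaled to the geometric mean library. CPM and levels per kb use TMM-adjusted library sizes. By unadjusted totals, 3 reads correspond to 0.0878 to 0.106 reads per 1e6, for counting error only. Ratios between genes were compared with exact permutation tests. The scripts were tested on simulated counts.

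Deviations from the group means correlated at 0.34, 0.684 and 0.572 between same-numbered CTL and TGF-β1 cultures, and at -0.617 to 0.215 between others; the pairing comes from the numbers in the labels and this check. Alternatives were the replicate block, DESeq2 1.42.0, limma-voom (limma 3.58.1), RLE factors, library size only, no filter beyond 1 count, and leaving out cultures. Named genes were the 10 members, Smad9, Smurf1, up to 12 other pathway genes with the smallest adjusted p-values under 0.05, and all readouts. The members and lists were chosen with earlier results of these data known. Some genes of the lists are not reported here and were left out of the list counts and medians. Marker genes and Foxh1 were named outside this rule, after their values were seen, and the Y-linked transcripts and Xist were added after the counts had been seen. Podocyte, leukocyte, endothelial, proximal, distal and collecting duct marker lists, also examined, summed to 62.3 to 142, 2.38 to 5.87, 0.824 to 2.58, 34.4 to 79.1, 1.12 to 3.03 and 0.36 to 2.07 CPM per library.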

Additional observations from a re-analysis of the deposited data

How the results depend on the processing

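What caused these changes was not tested. Against 4 members higher and 0 lower (edgeR), the replicate block gave 5 and 3, DESeq2 4 and 2, library size only 3 and 1, and limma-voom, RLE factors and no filter beyond 1 count each gave 4 and 0. Those lower by DESeq2 were Smad3 and Smad6, and the member lower with library size only was Smad6. Over all genes, edgeR without the block gave 793 higher and 1061 lower, the block 2388 and 3037, DESeq2 1201 and 1521, and library size only 508 and 1467. There limma-voom gave 773 and 1050, RLE factors 789 and 1066, and no filter beyond 1 count 739 and 1001. Leaving out 1 culture, or a same-numbered pair, gave between 0 and 4 members higher and between 0 and 2 lower. Over all genes those fits gave between 0 and 1084 higher and between 0 and 1290 lower. The fit with 0 members higher was that without replicate 1 in both groups. In it 4 members were higher and 1, Smad6, was lower at an unadjusted p-value under 0.05 (edgeR), and 1938 of all genes passed that threshold in either direction. Skil alone was called, 1 higher, in the fits without CTL replicate 1, TGF-β1 replicate 1 or both cultures numbered 3. Fits that left out cultures had no block. The replicate block changed the calls of Ski, Smad2, Smad3 and Smad6 and no other member's, and over all genes it moved the count of calls from 1854 to 5425. For the 38 other pathway genes it gave 10 higher and 10 lower in place of 4 and 4, and library size only gave 2 higher and 5 lower. The sign of Smad1 turned with library size only (-0.014). Smad4 ran from -0.017 to 0.0094 with 1 culture left out, positive only without CTL replicate 2. It ran from -0.018 to 0.013 with a pair left out, positive only without replicate 2 in both groups. Tgfbi ran from -0.35 to 0.058 with 1 culture left out, positive without CTL replicate 2 and at 0.0056 without TGF-β1 replicate 3. The log2 difference of Smad3 to Smad2 ran from -0.17 to -0.04 with 1 culture left out. The length correction cancels in the differences of ratios and tests nothing. Depth was not limiting for the 10 members, which had at least 721 reads in each library, but Smad9 had as few as 12.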
